A study of Mus musculus with 79 samples.

Results

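Pathogenic Th17 cells that had been cultured with DHEA were compared with the same kind of cells cultured with its solvent, methanol, both harvested without sorting. The libraries were taken by their titles, which name the cell type, the treatment and the sort: 5 of Th17p DHEA Total and 5 of Th17p Methanol Total, 10 of the 79 libraries in the series. Mouse T cells stained with CFSE, a dye that is diluted at each division, were differentiated in culture with IL1b, IL6 and IL23, the pathogenic conditions (Th17p). DHEA was given at 50 µM. "Total" means that no sort was made, and the series text gives 5 mice per condition. Another 3 pairs of groups, each with 5 libraries a group, are used for comparison: DHEA and methanol in Th17p cells sorted for exactly 1 division (Div.1), DHEA and methanol in unsorted non-pathogenic cells made with TGFb and IL6 (Th17n), and EGCG at 20 µM and its solvent DMSO in unsorted Th17p cells. Strain, sex, age, the purity of the starting T cells and the time in culture are not given in the sources used here. By the well names every DHEA library of the main comparison is in row D and every methanol library in row B, so plate row and treatment cannot be told apart.

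Th17 cells are CD4 T helper cells that secrete IL-17A, IL-17F and IL-22. IL-23 and IL-1 stabilise a form that drives autoimmune tissue damage, while TGFb with IL-6 gives cells that are less harmful. The labels give the compound as DHEA, the usual abbreviation of dehydroepiandrosterone, an adrenal steroid that is converted to androgens and oestrogens and that inhibits glucose-6-phosphate dehydrogenase. That enzyme makes NADPH at the entry of the pentose phosphate pathway, and NADPH feeds the synthesis of fatty acids and sterols and the reduction of glutathione.

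Expression is given as TPM, a level scaled for transcript length and library size. The table lists 20465 gene symbols. In these 10 libraries its values sum to 882144 to 895017 TPM, the 10 highest genes of a library take 6.901 to 7.644% of that sum, and 9421 to 9726 genes reached 1 TPM. TPM keep no read count, so the depth of each library is unknown. Pearson's r of log2(TPM + 1), across genes, between 2 libraries of the same group was 0.9893 to 0.9917 over the 20 pairs. The first principal component held 53.3% of the variance and separated DHEA from methanol, and the second held 8.7%, with the well of column 10 lowest in both groups. Markers of CD4 T cells were present: Cd3d, a chain of the T cell receptor complex, stood at 533 to 592 TPM with DHEA and 351 to 384 TPM with methanol, and Cd4 was present in all 10 libraries. Ncr1 and Klrb1c, which define NK cells, and Lyz2 and C1qa, which define macrophages, were listed at 0 in all 10. Some other markers on the same lists were above 0. The 8 macrophage and monocyte markers in the table summed to at most 0.802 TPM in a DHEA and 0.486 TPM in a methanol library. Among CD8 T and NK cell markers, Cd8b1 had a mean of 18.6 TPM with DHEA and 8.86 TPM with methanol.

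Expression differed between DHEA and methanol in 5095 of 10674 genes tested (47.7%), 2236 of them higher (20.9%) and 2859 lower (26.8%) with DHEA. Tested were the genes with at least 1 TPM in at least 4 of the 79 libraries, by limma on log2(TPM + 1) with p-values adjusted after Benjamini and Hochberg over all of them, and the threshold for a call was an adjusted p of 0.05. The 5 libraries of one group lay wholly above the 5 of the other in 3604 genes (33.8%). Among called changes of at least 2-fold on this scale, increases were the more frequent, with 247 genes higher and 100 lower. The median log2 change over all genes tested was -0.017. These shares are the background for the counts in each gene group that follows. When the TPM were rescaled per library by a median ratio, 5127 genes were called and the split became 2593 higher and 2534 lower. Since a TPM is a share of the RNA, fewer cells of a type and less RNA per cell cannot be told apart in these samples.

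**Figure D1:**
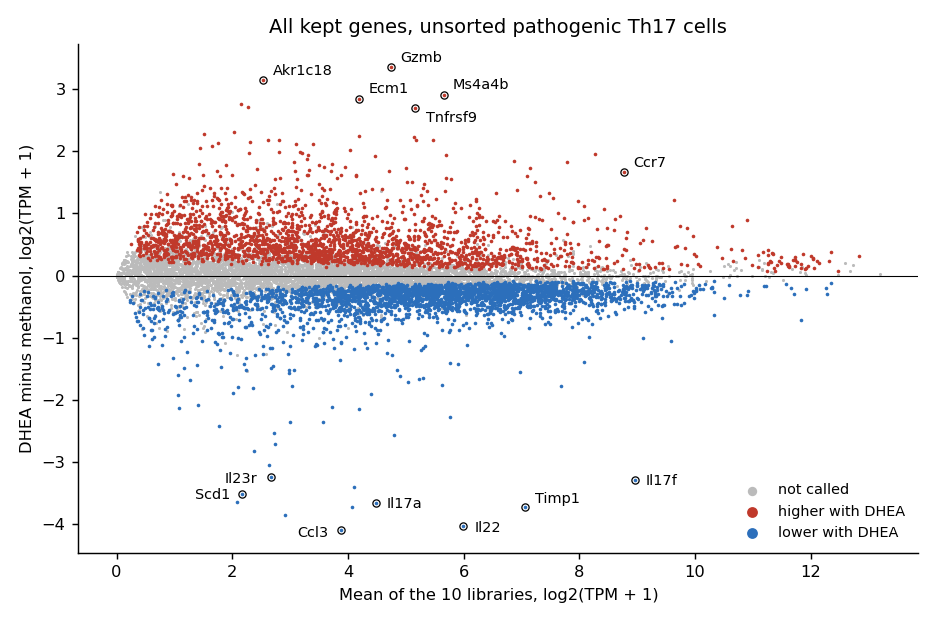
Log2 change of each of the 10674 genes tested (vertical axis, DHEA minus methanol, log2(TPM + 1) scale) against its mean level in the 10 libraries (horizontal axis, log2(TPM + 1)), with called genes in colour and named genes labelled. The cytokine and receptor genes Il22, Il17a, Il17f and Il23r lie near the lower edge with log2 changes of -4.03 to -3.24, and Gzmb lies near the upper edge at 3.35.

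The effector cytokines of Th17 cells were among the genes that fell furthest. Values per library are given in the order of the wells of columns 6 to 10, and fold differences are ratios of mean TPM. The 12 largest increases and 12 largest decreases were picked among genes whose groups did not overlap. For those genes, here and below, the lack of overlap is a condition of the choice and not a separate result. Il17f (chr1:20777146-20790617 in the GRCm38 annotation), which encodes IL-17F, was the most abundant of them, at 96.7, 133, 263, 124 and 240.2 TPM with DHEA and 1368, 1819.8, 1676, 1239 and 1760.1 TPM with methanol (log2 change -3.28, SE 0.20, adjusted p = 9.29e-23). Its level was 9.17-fold lower with DHEA, and the highest DHEA library lay far below the lowest methanol library. Il17a (chr1:20730905-20734496), a neighbour on the chromosome and the cytokine that gives these cells their name, stood at 1.44, 3.18, 24, 5.62 and 4.95 TPM with DHEA and 79.4, 86.2, 102, 43.7 and 98.0 TPM with methanol (log2 change -3.66, SE 0.44, adjusted p = 1.44e-10). For Il17a the well of column 8 was the highest of the DHEA libraries and the well of column 9 the lowest of the methanol libraries, and the groups did not overlap. Il22 (chr10:118204942-118210047), a cytokine that acts on epithelia, was at 21.9, 14.7, 15.7, 12.5 and 11 TPM with DHEA and 204, 308, 273, 233 and 280.1 TPM with methanol (log2 change -4.03, SE 0.41, adjusted p = 5.50e-13), again without overlap. The mouse genome holds a near copy of Il22, Iltifb, and how reads were shared between them is not given in the sources used here.

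Other secreted products fell with them. Il9, a cytokine that Th17 cells can make, went from 28.8 ± 9.24 TPM with methanol to 1.17 ± 0.971 TPM with DHEA (mean ± SD, n = 5 here and throughout). Il1rn, which encodes the antagonist of the IL-1 receptor, went from 60.2 ± 6.85 TPM with methanol to 3.94 ± 2.11 TPM with DHEA. Ccl3, a chemokine for macrophages and T cells, was at 3.53, 4.78, 0, 7.06 and 1.74 TPM with DHEA and 46.7, 83.9, 39.6, 58.1 and 83.5 TPM with methanol (log2 change -4.09, SE 0.49, adjusted p = 1.02e-10), with 1 DHEA library listed at 0 and every methanol library above every DHEA library. Timp1 (chrX:20870166-20874735), an inhibitor of matrix proteases, was at 33.2, 44.4, 33.3, 44.3 and 26 TPM with DHEA and 434, 551, 499.5, 378 and 572 TPM with methanol (log2 change -3.72, SE 0.19, adjusted p = 2.81e-26). The Timp1 level was 13.4-fold lower with DHEA and the groups lay far apart.

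Other cytokines did not follow this pattern. Il21, which Th17 cells use to sustain themselves, was at 44, 66.6, 49.5, 63 and 78.4 TPM with DHEA and 35.5, 41.1, 36.2, 41.1 and 50.7 TPM with methanol, and its mean rose although the groups overlapped (log2 change 0.53, SE 0.13, adjusted p = 6.34e-04). Il2, which encodes interleukin 2, a T cell growth factor, was abundant in both groups, at 1406 to 2458 TPM with DHEA and 1405 to 1851 TPM with methanol, and was not called (log2 change 0.12, SE 0.20, adjusted p = 0.666). Il10, an anti-inflammatory cytokine, was at or near 0 in all 10 libraries (0 to 0.0763 TPM with DHEA and 0 to 0.0829 TPM with methanol). Csf2 and Ifng, the genes of GM-CSF and interferon gamma, did not pass the filter on low values and were not tested.

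Receptors for the cytokines that hold the pathogenic state fell. Il23r (chr6:67422932-67491855), the specific chain of the IL-23 receptor, was at 0.894, 0.698, 0.816, 1.44 and 1.69 TPM with DHEA and 16.6, 20.0, 18.3, 17.7 and 20.9 TPM with methanol (log2 change -3.24, SE 0.19, adjusted p = 2.06e-23). Il23r was thus 16.9-fold lower, with the methanol libraries in a narrow band well above all DHEA libraries. Il1r1, the signalling receptor for IL-1, went from 4.51 ± 0.699 TPM with methanol to 0.310 ± 0.194 TPM with DHEA (log2 change -2.08, SE 0.17, adjusted p = 1.01e-16). Batf, an AP-1 factor that opens Th17 loci, was at 396, 377, 353, 362 and 463 TPM with DHEA and 707, 754, 786, 841 and 814 TPM with methanol (log2 change -1.0, SE 0.065, adjusted p = 3.59e-21), so it stayed among the highly expressed genes of the cells at a level 2.0-fold lower. Rora, a nuclear receptor of Th17 cells, was low, at 0.0803 to 2.55 TPM with DHEA and 0.361 to 1.95 TPM with methanol, with overlapping groups (log2 change -0.19, SE 0.28, adjusted p = 0.603). Sgk1, a kinase known to promote Il23r expression, was picked after its values were seen: it rose, from 7.16 ± 0.991 TPM with methanol to 13.8 ± 2.02 TPM with DHEA (log2 change 0.86, SE 0.16, adjusted p = 1.06e-05). Over the list of 22 Th17 cytokines, receptors and factors, all of which passed the filter, 4 rose, 9 fell and 9 were not called, and the median log2 change was -0.17.

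**Figure D2:**
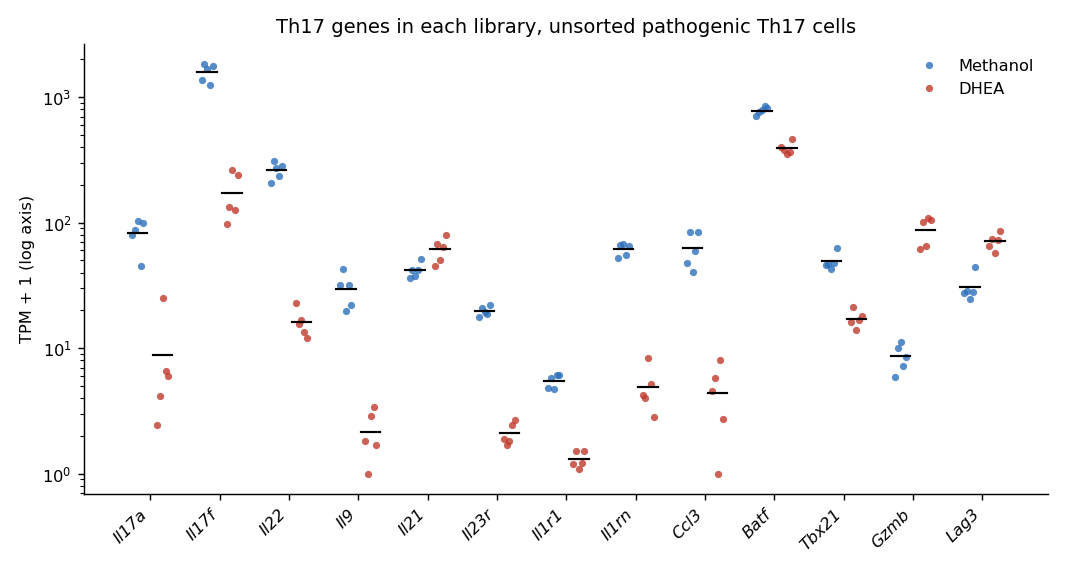
TPM + 1 on a logarithmic axis for each library (points, blue for methanol and red for DHEA) and the mean of each group (black lines, n = 5) for 13 genes of Th17 cells. Points of Il17a, Il17f, Il22, Il23r and Il1r1 separate by group without overlap.

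Members of both the pathogenic and the non-pathogenic Th17 signature were called in both directions. Of 15 genes of the pathogenic signature that passed the filter, 7 rose and 4 fell (median log2 change 0.27), and 4 rose when the Th17n DMSO Div.1 library that was left out of the fit was included. The shares were 46.7% higher and 26.7% lower, against 20.9% and 26.8% of all genes tested, so the share lower was that of the background. Of 7 genes of the non-pathogenic signature, 2 rose and 3 fell (28.6% and 42.9%, median -0.14), a list too short to set against the background. In the pathogenic set Gzmb, Lag3 and Il7r were higher with DHEA, whereas Il22, Ccl3 and Tbx21 were lower. Tbx21, which encodes the Th1 factor T-bet, was at 15.1, 20.2, 12.9, 15.8 and 17.1 TPM with DHEA and 44.7, 46, 41.5, 47 and 61.9 TPM with methanol (log2 change -1.52, SE 0.18, adjusted p = 1.35e-10), without overlap. Lag3, an inhibitory receptor, was at 64.6, 72.5, 56.2, 72 and 85.2 TPM with DHEA and 26.7, 27.6, 23.8, 27.2 and 43 TPM with methanol (log2 change 1.23, SE 0.14, adjusted p = 7.07e-12), also without overlap. Il7r, a survival receptor, went from 1.99 ± 0.386 TPM with methanol to 5.19 ± 0.778 TPM with DHEA (log2 change 1.05, SE 0.15, adjusted p = 1.06e-08). Among the non-pathogenic genes, Il9, Il1rn and Maf fell while Ikzf3 and Il6st rose. Ikzf3, a lymphocyte zinc finger factor, was at 11, 11.3, 11.3, 14.8 and 12 TPM with DHEA and 5.58, 5.55, 5.11, 4.59 and 6.11 TPM with methanol (log2 change 1.03, SE 0.089, adjusted p = 1.11e-15), with every DHEA library above every methanol library. Il6st, the shared signalling chain of the IL-6 receptor family, went from 2.50 ± 0.305 TPM with methanol to 4.94 ± 0.469 TPM with DHEA (log2 change 0.76, SE 0.10, adjusted p = 4.86e-09). Maf, a factor that drives Il10, was low, with overlapping groups at 0.249 to 0.680 TPM with DHEA and 0.475 to 1.36 TPM with methanol (log2 change -0.28, SE 0.12, adjusted p = 0.0423). The Maf call was lost in 8 of 19 alternatives (limma, adjusted p up to 0.482). Among them were the runs without the DHEA library of column 6 or 8 or the methanol library of column 6 or 10 (limma, adjusted p = 0.135 to 0.208).

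Cd5l, a regulator of lipid synthesis that restrains pathogenicity in Th17 cells, fell too. Its values were 3.06, 0.548, 0.775, 0.391 and 2.06 TPM with DHEA and 16.7, 15.8, 17.2, 17 and 17.3 TPM with methanol (log2 change -3.04, SE 0.28, adjusted p = 1.45e-14), with the methanol libraries close together and all DHEA libraries below them. Stra6, a retinol transporter, went from 54.8 ± 3.27 TPM with methanol to 4.38 ± 1.12 TPM with DHEA (log2 change -3.40, SE 0.23, adjusted p = 3.56e-20), and Ildr1, a protein of cell junctions, from 14.3 ± 4.11 TPM with methanol to 0.196 ± 0.145 TPM with DHEA (log2 change -3.65, SE 0.22, adjusted p = 2.03e-22).

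Genes of cytotoxic granules rose. Gzmb (chr14:56258838-56262260), which encodes the protease granzyme B, was at 60.5, 100.3, 63.7, 107 and 104 TPM with DHEA and 4.94, 9.06, 10.2, 6.17 and 7.5 TPM with methanol (log2 change 3.35, SE 0.22, adjusted p = 1.64e-20). Gzmb was 11.5-fold higher with DHEA, and every DHEA library held several times the level of the highest methanol library. Prf1, the pore-forming perforin, was at 2.82, 2.66, 1.92, 2.67 and 3.64 TPM with DHEA and 0.589, 0.443, 0.158, 0.419 and 1.05 TPM with methanol (log2 change 1.30, SE 0.20, adjusted p = 1.21e-07). Ctsw, a cathepsin of cytotoxic cells, was at 8.70, 9.36, 8.95, 7.75 and 6.04 TPM with DHEA and 0.942, 0.923, 0.287, 1.45 and 0.775 TPM with methanol (log2 change 2.31, SE 0.15, adjusted p = 2.67e-21). Both were low genes whose groups did not overlap. Serpinb9, an inhibitor that protects a cell from its own granzyme B, went from 19.8 ± 3.69 TPM with methanol to 58.2 ± 12.1 TPM with DHEA (log2 change 1.5, SE 0.17, adjusted p = 3.31e-11). Of 7 members of the list that passed the filter, 6 rose and none fell (median 1.30). Lamp1, a membrane protein of lysosomes and granules, was the least firm of the 6, at 94.9, 85.2, 104, 97.6 and 126 TPM with DHEA and 43.8, 56.6, 19.2, 54 and 74.6 TPM with methanol (log2 change 1.13, SE 0.48, adjusted p = 0.0476). The groups of Lamp1 did not overlap, but its call was lost without any 1 of 8 of the 10 libraries, all but the methanol libraries of columns 7 and 10 (limma, adjusted p = 0.0536 to 0.181). Over all 19 alternatives the Lamp1 call was lost in 12.

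Among markers of CD8 T and NK cells, the summed level was higher with DHEA, while single markers went both ways. Their summed level, over 10 markers in the table, was 17.1 to 24.6 TPM with DHEA and 7.89 to 11.2 TPM with methanol (exact two-sided permutation test, p = 0.00794, the smallest that 5 against 5 allow, adjusted p = 0.0278 over 7 marker lists). Nearly all of that sum was Cd8b1, a chain of the CD8 co-receptor picked after its values were seen, at 18.6 ± 2.64 against 8.86 ± 1.35 TPM. Cd8a, the other chain, likewise picked afterwards, was at 0.178 ± 0.117 against 0.0904 ± 0.0557 TPM, and Ncr1 and Klrb1c were listed at 0. The NK cell markers Klre1 and Klrk1 were lower with DHEA, at 0.0216 against 0.347 TPM and 0.0141 against 0.0668 TPM with methanol. Eomes (0.371 against 0.128 TPM), Klrd1, Klra1 and Klrc1 had higher means with DHEA, all near the floor. The adjusted p of the sum was 0.0556 without any one of the DHEA libraries of columns 8, 9 and 10 or the methanol libraries of columns 6, 7, 9 and 10. It was 0.037 without the DHEA library of column 6 or 7 or the methanol library of column 8. In all these runs 4 against 5 allow no p below 0.0159 before adjustment. The adjusted value then depends on how many of the other marker lists have a small p as well. The part of such cells in the Gzmb, Prf1 and Ctsw results was not tested.

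Genes of naive and quiescent T cells rose as a group. Of 17 members, 14 rose and none fell (median 0.67), against 20.9% higher among all genes tested. Ccr7, the chemokine receptor that guides T cells into lymph nodes, was at 814, 688, 708, 860.2 and 831 TPM with DHEA and 292, 228, 252, 251 and 211 TPM with methanol (log2 change 1.66, SE 0.084, adjusted p = 3.15e-26). Tcf7, the gene of the stem-like T cell factor TCF1, was at 251, 219.9, 253, 245 and 281 TPM with DHEA and 101, 91.0, 104, 106 and 109.7 TPM with methanol (log2 change 1.28, SE 0.10, adjusted p = 1.87e-18). In both genes every DHEA library held more than 2 times the level of the highest methanol library. Btg1, an anti-proliferative gene of resting lymphocytes, went from 9.49 ± 1.04 TPM with methanol to 21.4 ± 2.53 TPM with DHEA (log2 change 1.09, SE 0.068, adjusted p = 5.32e-22). Homing and chemokine receptor genes, a list that shares Ccr7 and other members with the naive genes, had 12 members higher and 2 lower out of 19 (median 0.48), and 1 lower without the DHEA library of column 9. Markers of CD4 T cells rose as well, 7 of 9 with none lower: Cd3g from 197 ± 10.4 TPM with methanol to 368 ± 18.4 TPM with DHEA, Thy1 from 53.9 ± 1.94 TPM with methanol to 107 ± 4.13 TPM with DHEA and Zap70, the kinase of the T cell receptor, from 139.5 ± 14 TPM with methanol to 234 ± 14.1 TPM with DHEA.

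Genes induced through the T cell receptor were higher at the same time. Of 21 immediate early genes, 14 rose and 1 fell (median 0.63), and none fell without the DHEA library of column 6 or 8 or the methanol library of column 9 or 10. Nr4a1, an orphan nuclear receptor induced within hours of receptor signalling, was at 196, 238, 221, 243 and 292 TPM with DHEA and 63.3, 76.1, 58.7, 93.8 and 104 TPM with methanol (log2 change 1.60, SE 0.15, adjusted p = 1.45e-14). Nr4a3, of the same family, was at 8.41, 8.62, 9.43, 9.10 and 11.9 TPM with DHEA and 1.03, 1.33, 1.38, 1.42 and 1.65 TPM with methanol (log2 change 2.15, SE 0.16, adjusted p = 4.59e-18). The groups were separate for both, and no methanol library of Nr4a3 was above 1.65 TPM. Cd69, an early activation marker, went from 140.0 ± 9.88 TPM with methanol to 284 ± 41.8 TPM with DHEA (log2 change 1.0, SE 0.10, adjusted p = 3.42e-14), and Nfatc1, a calcium-driven factor, from 28 ± 4.12 TPM with methanol to 54 ± 6.36 TPM with DHEA (log2 change 0.93, SE 0.10, adjusted p = 7.65e-13).

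Several ligands and receptors of the TNF superfamily, named here one by one and not counted as a list, were higher, as were 7 of 11 regulatory T cell genes. Tnfrsf9 (4-1BB), a costimulatory receptor, was at 76, 92.2, 84.5, 91.5 and 111 TPM with DHEA and 9.09, 11.7, 13.4, 17.1 and 15.6 TPM with methanol (log2 change 2.70, SE 0.18, adjusted p = 4.90e-20), without overlap. Ltb, the gene of lymphotoxin beta, was at 384, 417, 399.8, 434 and 449.7 TPM with DHEA and 129.9, 90.5, 108, 121 and 139 TPM with methanol (log2 change 1.83, SE 0.13, adjusted p = 4.40e-19), also without overlap. Of 12 activation cytokine genes, 6 rose and none fell (median 0.33), with Tnfsf8, Tnfsf11 and Tnfsf4, the ligands of CD30, RANK and OX40, between 1.11 and 1.22 on the log2 scale. Of 11 regulatory T cell genes, 7 rose and 2 fell (median 0.76). Among them Ctla4, an inhibitory receptor, went from 47.6 ± 6.0 TPM with methanol to 113 ± 17.6 TPM with DHEA (log2 change 1.23, SE 0.11, adjusted p = 7.65e-15), and Tnfrsf18 (GITR), a costimulatory receptor, from 184 ± 12 TPM with methanol to 401 ± 36.6 TPM with DHEA (log2 change 1.12, SE 0.078, adjusted p = 1.42e-19). Tnfrsf4 (OX40) was already abundant with methanol and went from 645 ± 47.2 TPM with methanol to 1125 ± 115 TPM with DHEA. Foxp3, the lineage factor of regulatory T cells, remained low in all 10 libraries with overlapping groups (0.636, 0.444, 1.43, 0.400 and 0.149 TPM against 0.278, 0, 0.238, 0.0915 and 0 TPM; log2 change 0.48, SE 0.16, adjusted p = 0.00999). Its call was lost in 2 of 19 alternatives, with a limma adjusted p of up to 0.406. In 1 of the 2, the run without the DHEA library of column 8, it was 0.0976.

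**Figure D3:**
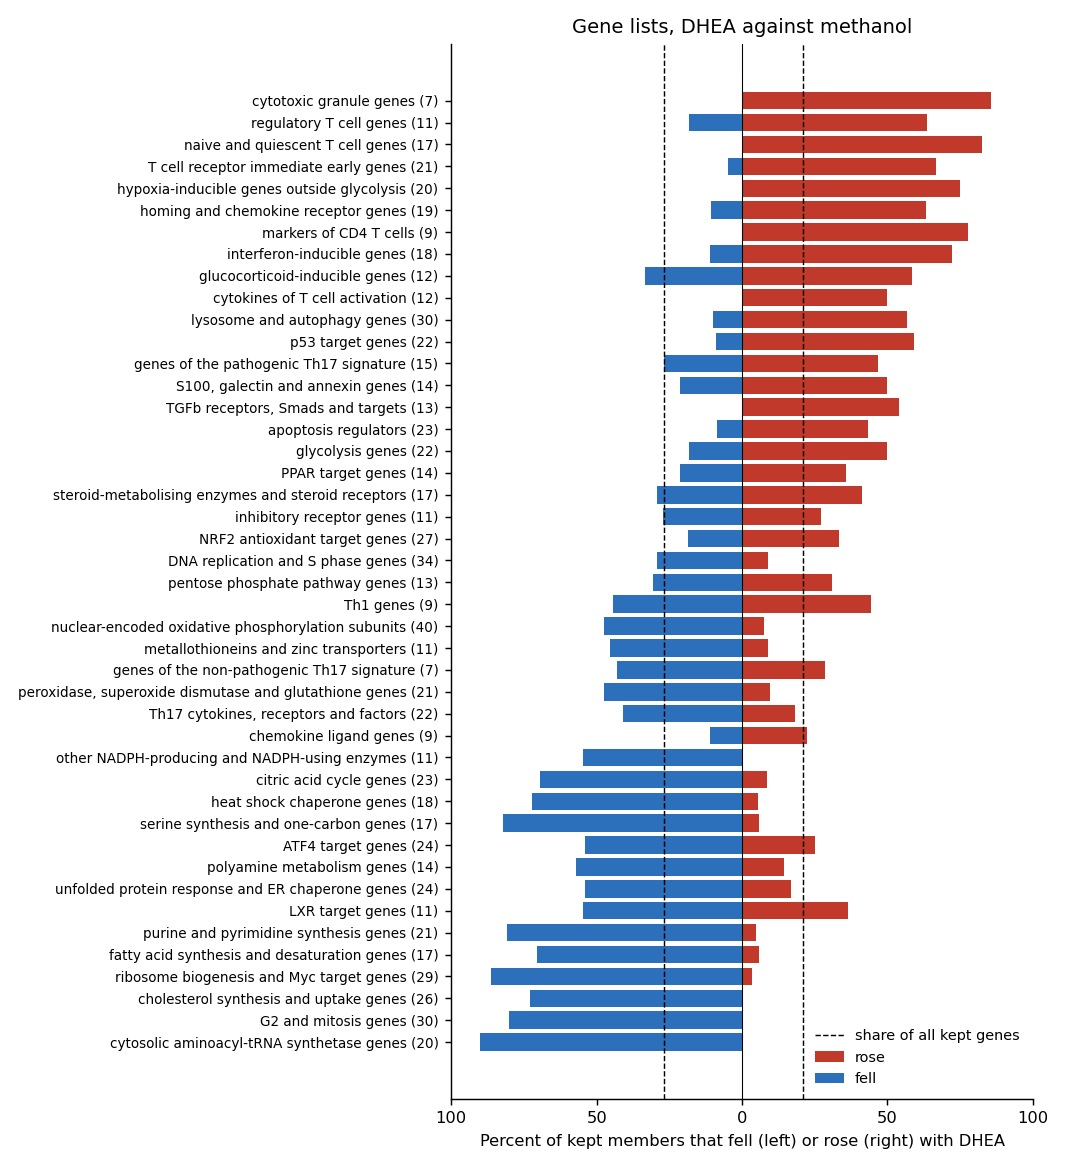
Percent of tested members that fell (blue, to the left) and rose (red, to the right) with DHEA in each described gene list, with the number of tested members in parentheses and dashed lines at the shares of all genes tested, 26.8% lower and 20.9% higher. The cytotoxic, naive, CD4 T cell marker and hypoxia lists extend furthest beyond the right line and the aminoacyl-tRNA synthetase, ribosome biogenesis and serine lists beyond the left one.

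The oxidative enzymes of the pentose phosphate pathway were lower. G6pdx (chrX:74409483-74429194), the gene of the glucose-6-phosphate dehydrogenase that DHEA is known to inhibit, was at 57.9, 58.8, 56.1, 62.9 and 64.1 TPM with DHEA and 70.3, 69.6, 74.4, 86.0 and 83.5 TPM with methanol (log2 change -0.35, SE 0.058, adjusted p = 8.90e-07). Pgd, which makes the next NADPH of the pathway, was at 192, 178, 169.8, 177 and 206 TPM with DHEA and 253, 273, 267, 292 and 314 TPM with methanol (log2 change -0.60, SE 0.056, adjusted p = 2.10e-14). Neither gene overlapped between groups, and their levels fell only 1.28-fold and 1.52-fold. G6pdx has a near copy, G6pd2, and how reads were shared is not given in the sources used here. In the non-oxidative branch Tkt and Taldo1, which exchange carbon units between sugars, were not called, with log2 changes of -0.087 (SE 0.044, adjusted p = 0.0982) and -0.090 (SE 0.040, adjusted p = 0.0578) from limma. Both were called lower without the DHEA library of column 10 (adjusted p = 0.0368 and 0.0417), Tkt also without the methanol library of column 6 (0.0301) and Taldo1 without that of column 7 (0.0271) or 9 (0.042). Prps1, which turns ribose phosphate into the precursor of nucleotides, went from 143 ± 4.21 TPM with methanol to 100.2 ± 6.13 TPM with DHEA (log2 change -0.52, SE 0.069, adjusted p = 3.39e-09), while Pgm2, a phosphopentomutase, went from 55.8 ± 3.71 TPM with methanol to 77.2 ± 5.85 TPM with DHEA (log2 change 0.46, SE 0.065, adjusted p = 1.03e-08). Over the 13 genes of the pathway, 4 rose and 4 fell (median -0.087).

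Of the other enzymes that make or use NADPH, Idh1 stood out by size. Idh1, the cytosolic isocitrate dehydrogenase, was at 7.87, 6.56, 7.93, 6.32 and 10.3 TPM with DHEA and 36, 37.3, 34.2, 37.1 and 42.3 TPM with methanol (log2 change -2.14, SE 0.12, adjusted p = 2.78e-24), 4.8-fold lower with DHEA and without overlap. Of 11 such genes, 6 fell and none rose (median -0.21). The folate enzymes Mthfd1 and Mthfd2 and the mitochondrial thioredoxin reductase Txnrd2 were among the 6, with log2 changes of -0.23, -0.37 and -0.50.

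Glycolysis genes and hypoxia-inducible genes rose while those of the citric acid cycle fell. Of 22 glycolysis genes, 11 rose and 4 fell (median 0.16). Slc16a3, the exporter of lactate, was at 25.6, 35.5, 29.4, 38.3 and 31.9 TPM with DHEA and 6.26, 3.98, 3.71, 12.4 and 14.5 TPM with methanol (log2 change 2.02, SE 0.27, adjusted p = 2.05e-09), without overlap although the methanol libraries of columns 9 and 10 were higher than the rest. Ldhb, a lactate dehydrogenase subunit, went from 36 ± 3.43 TPM with methanol to 63.6 ± 2.70 TPM with DHEA, Tpi1, the triose phosphate isomerase, from 1364 ± 142 TPM with methanol to 1825 ± 89.6 TPM with DHEA, and Gpi1, the glucose-6-phosphate isomerase, from 376 ± 24.9 TPM with methanol to 506 ± 21.8 TPM with DHEA. Pgam1, the phosphoglycerate mutase, was among the 4 that fell, at 1441, 1462, 1358, 1409 and 1597 TPM with DHEA and 1530.1, 1553, 1569, 1691 and 1751 TPM with methanol (log2 change -0.15, SE 0.044, adjusted p = 0.00248), with overlapping groups. Of 20 hypoxia-inducible genes outside glycolysis, 15 rose and none fell (median 0.48). Bnip3, a mitophagy receptor, was at 78.3, 93.9, 92.9, 95.7 and 104 TPM with DHEA and 29.4, 26.8, 29.1, 33.3 and 37.4 TPM with methanol (log2 change 1.55, SE 0.14, adjusted p = 3.49e-15), and every DHEA library had more than 2 times the level of the highest methanol library. Its relative Bnip3l went from 20.4 ± 1.34 TPM with methanol to 42.9 ± 4.92 TPM with DHEA and Ndrg1, a stress response gene, from 6.69 ± 2.19 TPM with methanol to 18.6 ± 3.98 TPM with DHEA. Of 23 citric acid cycle genes, 16 fell and 2 rose (median -0.22), 1 without the DHEA library of column 9 or 10. Dld and Dlst, subunits of the 2-oxoglutarate dehydrogenase complex, went from 116 ± 3.0 TPM with methanol to 78.8 ± 1.76 TPM with DHEA and from 164 ± 9.34 TPM with methanol to 116 ± 7.88 TPM with DHEA. Nuclear-encoded subunits of oxidative phosphorylation moved less, with 19 of 40 lower and 3 higher (median -0.11). That count of 3 was 5 without the DHEA library of column 10 and 1 without the DHEA library of column 6, 7, 8 or 9 or the methanol library of column 9.

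Genes of fatty acid desaturation showed the largest differences among the metabolic genes. Scd1 (chr19:44394455-44407879), a stearoyl-CoA desaturase that makes monounsaturated fatty acids, was at 0.339, 0.313, 0.279, 0.294 and 0.472 TPM with DHEA and 10.5, 15.1, 12.2, 17.8 and 17 TPM with methanol (log2 change -3.51, SE 0.20, adjusted p = 3.82e-24). Scd2 (chr19:44293674-44306864), its neighbour and the main form in lymphocytes, was at 25.9, 24.7, 23.1, 25.6 and 30.8 TPM with DHEA and 83.7, 91.6, 81.3, 97.9 and 95.8 TPM with methanol (log2 change -1.76, SE 0.11, adjusted p = 2.82e-21). Fads2, which desaturates polyunsaturated fatty acids, was at 5.49, 5.60, 4.78, 4.56 and 6.69 TPM with DHEA and 24.3, 22.2, 24.5, 29 and 35 TPM with methanol (log2 change -2.12, SE 0.20, adjusted p = 2.80e-14). All 3 genes separated without overlap, Scd1 to at most 0.472 TPM in a DHEA library. Fads1, the enzyme that acts after Fads2, went from 32.4 ± 3.12 TPM with methanol to 18.6 ± 2.98 TPM with DHEA (log2 change -0.78, SE 0.077, adjusted p = 1.22e-13). Of 17 genes of fatty acid synthesis and desaturation, 12 fell and 1 rose (median -0.29), and of 26 genes of cholesterol synthesis and uptake, 19 fell and none rose (median -0.32). Lss, which closes the sterol rings, was at 48.7, 43.3, 37.7, 41.6 and 51 TPM with DHEA and 87.4, 97.4, 93.2, 106 and 100.5 TPM with methanol (log2 change -1.11, SE 0.082, adjusted p = 1.04e-18), without overlap. Acat2, Mvd and Pmvk, enzymes earlier in the pathway, had log2 changes of -0.93, -0.79 and -0.79. Abca1, the cholesterol exporter and a target of the sterol-sensing LXR receptors, went from 1.22 ± 0.278 TPM with methanol to 0.112 ± 0.0691 TPM with DHEA (log2 change -0.99, SE 0.089, adjusted p = 3.81e-15).

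Enzymes that metabolise steroids were higher in some cases. Akr1c18, a 20-alpha-hydroxysteroid dehydrogenase, was at 21.3, 14.6, 22.5, 6.77 and 22.8 TPM with DHEA and 0.551, 0, 2.90, 3.73 and 0 TPM with methanol (log2 change 3.14, SE 0.66, adjusted p = 5.07e-05), with 2 methanol libraries listed at 0. Cyp11a1, the side-chain cleavage enzyme that starts steroid synthesis from cholesterol, was at 4.31, 4.41, 3.18, 3.54 and 4.90 TPM with DHEA and 0.494, 0.256, 0.610, 0.485 and 0.403 TPM with methanol (log2 change 1.80, SE 0.16, adjusted p = 3.70e-15). Hsd11b1, which activates glucocorticoids, went from 3.76 ± 1.44 TPM with methanol to 8.32 ± 0.954 TPM with DHEA (log2 change 1.02, SE 0.18, adjusted p = 3.01e-06). The groups did not overlap for these 3. Of the 34 enzymes and receptors on this list, 17 passed the filter, 7 of which rose and 5 fell (median 0.026). Nr3c1, the glucocorticoid receptor, went from 3.43 ± 0.165 TPM with methanol to 4.51 ± 0.499 TPM with DHEA (log2 change 0.31, SE 0.086, adjusted p = 0.00181). Akr1c genes are near copies of one another, so the level of each is uncertain.

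**Figure D4:**
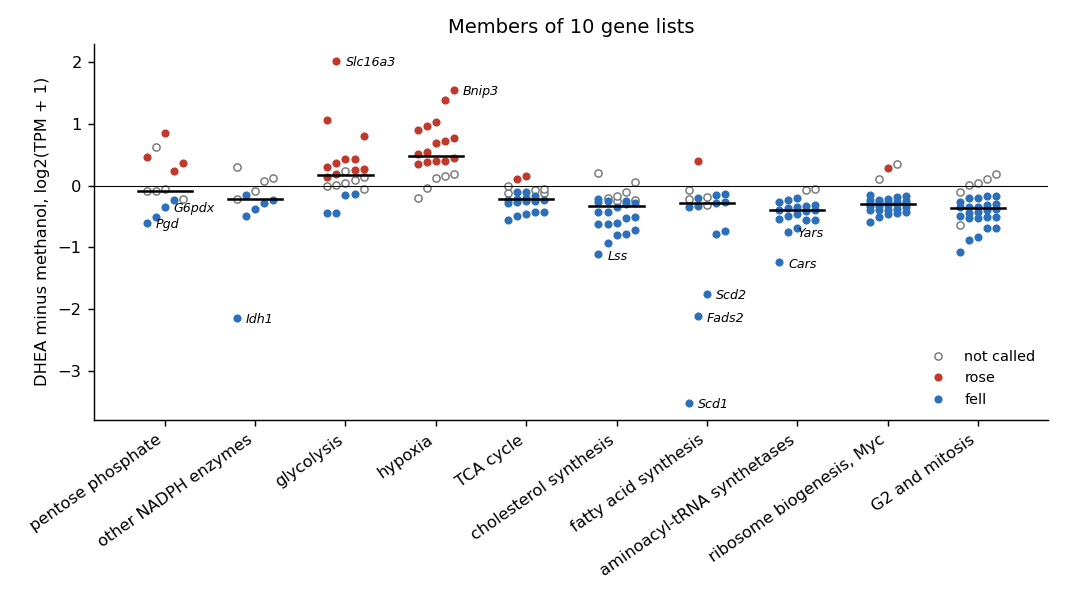
Log2 change (vertical axis, DHEA minus methanol, log2(TPM + 1) scale) of each tested member of 10 gene lists, 1 point per gene, red where it rose, blue where it fell and open where it was not called, with black lines at the medians. Scd1, Scd2 and Fads2 stand apart at the low end of fatty acid synthesis, and Idh1 at the low end of the NADPH enzymes.

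Antioxidant genes under NRF2 did not move in 1 direction. Of 27 NRF2 targets that passed the filter, 9 rose and 5 fell (median -0.011), shares of 33.3 and 18.5%, and G6pdx and Pgd were among the 5. Metallothioneins, small proteins that bind zinc and copper, fell. Mt1 was at 65.6, 84.7, 65.1, 87.2 and 63.6 TPM with DHEA and 212, 257, 200.1, 224 and 182 TPM with methanol (log2 change -1.55, SE 0.15, adjusted p = 1.48e-13) and Mt2 at 10.7, 9.36, 11.3, 13.4 and 7.89 TPM with DHEA and 69.6, 73.3, 82.1, 66.8 and 46.1 TPM with methanol (log2 change -2.56, SE 0.22, adjusted p = 1.05e-15), both without overlap. They are near copies in sequence and reads may be shared between them.

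Genes of amino acid metabolism and of translation fell in numbers well above the background. Of 20 cytosolic aminoacyl-tRNA synthetase genes, which load amino acids onto transfer RNAs, 18 fell and none rose (90.0% lower, median -0.39). Of 17 genes of serine synthesis and one-carbon metabolism, 14 fell and 1 rose (median -0.23). Of 24 targets of ATF4, the factor of the amino acid response, 13 fell and 6 rose (median -0.23). Atf4 was at 275, 243, 267, 244 and 264 TPM with DHEA and 364, 396, 384, 452 and 498 TPM with methanol (log2 change -0.69, SE 0.080, adjusted p = 5.30e-11), without overlap. Nupr1, a stress-induced co-regulator, went from 7.23 ± 2.59 TPM with methanol to 0.514 ± 0.360 TPM with DHEA (log2 change -2.42, SE 0.31, adjusted p = 5.56e-10), whereas Stc2, a secreted stress glycoprotein, went the other way, from 0.797 ± 0.607 TPM with methanol to 3.09 ± 0.980 TPM with DHEA (log2 change 1.21, SE 0.21, adjusted p = 1.59e-06). Psat1 and Shmt2, enzymes of serine and glycine synthesis, fell by 0.38 and 0.28 on the log2 scale.

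The synthetase promoters are shown because these genes moved together and because ATF4 is known to bind a C/EBP-ATF element in genes of this kind. In the RefSeq promoter windows (GRCm38.p6, 250 bases before to 50 after the start), the letters TGATGNAA, searched on both strands, were present in 5 of the 12 synthetase genes that have an entry, 41.7%. They were present in 3.97% of 32851 promoter windows and in 2.79% of the 8256 tested genes with an entry. Of the 12 genes with an entry 11 fell, all 5 among them, so the letters cannot be tied to the direction here. For ATF4 targets it was 7 of 20 (35%), of which 4 fell, while Atf3 and Pck2 rose and Asns was not called. That list is made of known targets of the factor, so its high share is no result of these data. Among serine synthesis and one-carbon genes, a list that also fell, the letters were present in 1 of 14 (7.14%). Each line gives 120 bases before to 30 after the start, 5′ to 3′ on the gene's strand, with capitals for the matching letters or their reverse complement.

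Yars, chr4:129189783-129189932, plus strand: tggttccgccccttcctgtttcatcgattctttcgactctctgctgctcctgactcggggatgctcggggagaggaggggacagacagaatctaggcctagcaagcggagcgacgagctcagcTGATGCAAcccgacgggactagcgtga
Tars, chr15:11399629-11399778, minus strand: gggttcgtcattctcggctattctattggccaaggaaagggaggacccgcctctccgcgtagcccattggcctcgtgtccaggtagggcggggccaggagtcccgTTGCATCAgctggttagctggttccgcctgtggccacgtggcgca
Aars, chr8:111033722-111033871, plus strand: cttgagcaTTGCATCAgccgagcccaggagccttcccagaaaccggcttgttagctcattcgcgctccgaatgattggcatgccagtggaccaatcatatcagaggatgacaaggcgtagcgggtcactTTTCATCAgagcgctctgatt
Iars, chr13:49682010-49682159, plus strand: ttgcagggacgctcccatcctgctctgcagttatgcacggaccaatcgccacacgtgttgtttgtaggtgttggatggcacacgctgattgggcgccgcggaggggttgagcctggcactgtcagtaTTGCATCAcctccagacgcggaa
Gars, chr6:55037881-55038030, plus strand: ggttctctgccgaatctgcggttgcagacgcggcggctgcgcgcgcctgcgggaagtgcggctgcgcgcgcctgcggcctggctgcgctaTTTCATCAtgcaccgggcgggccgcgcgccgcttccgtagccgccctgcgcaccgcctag

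The match begins at position 4 in Yars, -15 in Tars, 8 in Iars and -30 in Gars, counted from the start, and Aars holds one at -112 and one at 10. A match is a description of the letters and no evidence of binding. Yars, the tyrosine synthetase, was at 84.1, 82.5, 83.0, 84.3 and 81.3 TPM with DHEA and 129.8, 137, 128, 152 and 154 TPM with methanol (log2 change -0.75, SE 0.054, adjusted p = 6.78e-19), and Tars, the threonine synthetase, at 134, 124, 125, 129 and 131 TPM with DHEA and 184, 207, 197, 220.5 and 233 TPM with methanol (log2 change -0.69, SE 0.054, adjusted p = 1.91e-17). In both the DHEA libraries were within a narrow range below all methanol libraries. Aars, Iars and Gars, for alanine, isoleucine and glycine, were picked after their values were seen, for their promoters. Aars went from 107 ± 15.4 TPM with methanol to 71.8 ± 2.73 TPM with DHEA (log2 change -0.55, SE 0.066, adjusted p = 9.42e-11), Iars from 133 ± 11.8 TPM with methanol to 95.9 ± 3.26 TPM with DHEA (log2 change -0.46, SE 0.057, adjusted p = 3.13e-10) and Gars from 329.6 ± 26.2 TPM with methanol to 255 ± 10.7 TPM with DHEA (log2 change -0.37, SE 0.050, adjusted p = 3.77e-09). Nars and Mars, for asparagine and methionine, went from 288 ± 30.5 TPM with methanol to 194 ± 7.95 TPM with DHEA and from 176 ± 17.9 TPM with methanol to 124 ± 4.03 TPM with DHEA.

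Genes of ribosome assembly and of mitosis were lower. Of 29 ribosome biogenesis and Myc target genes, 25 fell and 1 rose (median -0.30), 2 without the methanol library of column 10. Pno1 and Wdr43, which assemble the small ribosomal subunit, went from 264 ± 13 TPM with methanol to 175 ± 7.24 TPM with DHEA and from 206 ± 6.29 TPM with methanol to 144 ± 7.04 TPM with DHEA, and Nip7 and Nop16, of the large subunit, fell by 0.44 and 0.40 on the log2 scale. The E-box letters CACGTG, which Myc is known to bind, were present in 8 of the 23 genes of this list with an entry (34.8%), against 12.3% of tested genes with an entry. Counted by window and not by gene, they were in 7.15% of all promoter windows. The list includes Myc targets by name, so its share is no result of these data. Of 30 genes of G2 and mitosis, 24 fell and none rose (median -0.37), and 1 rose without the DHEA library of column 9 or the methanol library of column 10. Cdc20, which activates the anaphase-promoting complex, was at 197, 169, 164, 167 and 175 TPM with DHEA and 291, 309, 304, 315 and 329 TPM with methanol (log2 change -0.83, SE 0.064, adjusted p = 9.90e-18), without overlap. Plk1, a mitotic kinase, Hmmr, a spindle protein, and Ccnb1, the mitotic cyclin, had log2 changes of -0.69, -0.88 and -0.69. Genes of DNA replication moved less: 10 of 34 fell and 3 rose, 5 without the methanol library of column 10 (median -0.039), a share of 29.4% lower that is close to the background. Other motifs were searched on both strands in the same windows. The letters TGACNNNGC of the antioxidant response element were present in 9 of 22 NRF2 target genes with an entry (40.9%), against 17.2% of tested genes. Of those 9 genes 5 fell. This list, too, is made of known targets of the factor, so its share is no result of these data. The sterol response element letters TCACNCCA were present in 2 of 19 cholesterol synthesis and 1 of 14 fatty acid synthesis genes with an entry, against 4.397% of tested genes. The AP-1 letters TGACTCA were in none of 14 immediate early genes with an entry, against 4.37% of tested genes.

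Targets of p53 and genes induced by interferon had more members higher than lower. Of 22 p53 targets, 13 rose and 2 fell (median 0.27), 4 without the DHEA library of column 10. Cdkn1a, the cell cycle inhibitor p21, was at 103, 129, 141, 99.1 and 158 TPM with DHEA and 65.7, 64.2, 81.3, 59.1 and 71.9 TPM with methanol (log2 change 0.86, SE 0.17, adjusted p = 1.39e-05), without overlap. Trp53inp1 and Plk2, a stress gene and a kinase, went from 7.13 ± 0.679 TPM with methanol to 17.5 ± 3.27 TPM with DHEA and from 9.91 ± 1.52 TPM with methanol to 21.3 ± 2.32 TPM with DHEA, while Perp, a membrane protein, went from 36.2 ± 4.53 TPM with methanol to 17.5 ± 4.53 TPM with DHEA (log2 change -1.04, SE 0.13, adjusted p = 3.07e-10). Of 18 interferon-inducible genes, 13 rose and 2 fell (median 0.42). Ifi27l2a, a mitochondrial protein, went from 89.0 ± 14.8 TPM with methanol to 254 ± 29.9 TPM with DHEA (log2 change 1.51, SE 0.14, adjusted p = 3.11e-14). Ifitm3, an antiviral membrane protein, was 1 of the 2 that fell, from 66.4 ± 7.38 TPM with methanol to 20.5 ± 3.87 TPM with DHEA (log2 change -1.66, SE 0.26, adjusted p = 1.94e-07).

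Among the genes with the largest increases were several of lymphocytes that belong to none of these groups. Ms4a4b, a membrane protein of T cells, was at 157, 113, 119.5, 144 and 159 TPM with DHEA and 16.8, 19.2, 19.1, 15.8 and 16.4 TPM with methanol (log2 change 2.91, SE 0.17, adjusted p = 2.53e-23), without overlap. Ecm1, a secreted protein of T helper cells, went from 5.89 ± 1.03 TPM with methanol to 48.2 ± 1.98 TPM with DHEA (log2 change 2.85, SE 0.18, adjusted p = 7.03e-22). Slfn1, a gene that slows T cell growth, went from 7.39 ± 0.813 TPM with methanol to 38.7 ± 2.79 TPM with DHEA and Gimap7, a GTPase of lymphocytes, from 16.4 ± 3.76 TPM with methanol to 76.7 ± 6.88 TPM with DHEA. H2-Q7, a non-classical MHC class I gene with close relatives, went from 20.7 ± 7.47 TPM with methanol to 94.0 ± 13.7 TPM with DHEA. H2-Ab1, an MHC class II chain picked after its values were seen, went from 3.57 ± 0.651 TPM with methanol to 17.2 ± 2.80 TPM with DHEA (log2 change 2.0, SE 0.25, adjusted p = 4.79e-10). The summed level of 10 dendritic cell markers was 20.0 to 28.7 TPM with DHEA and 7.1 to 10.4 TPM with methanol (exact two-sided permutation test, p = 0.00794, adjusted p = 0.0278), with H2-Aa, the partner chain, listed at 0. That adjusted p, too, was 0.0556 without any one of the same libraries. H2-Ab1 was most of the sum with DHEA, but with methanol Cd74 was the larger part. Cd74 was at 5.72 ± 0.548 TPM with DHEA and 4.42 ± 1.12 TPM with methanol. Itgax, another dendritic cell marker, was listed at 0 in every DHEA library. The part of such cells in these results was not tested. Over the other 5 marker lists no adjusted p was under 0.05 on the deposited scale with all 10 libraries. Of these, 4 summed to at most 5.42 TPM on average in each group. The list of γδ and NKT cells summed to at most 0.147 TPM on average. Only 2 of its 6 markers, Sox13 and Zbtb16, had values, so that sum cannot show whether γδ or NKT cells were present. The adjusted p (exact permutation test) was 0.037 for B cell markers without the DHEA library of column 6 and for erythroid and platelet markers without that of column 7. It was also 0.037 for neutrophil, mast cell and basophil markers without the methanol library of column 8.

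The DHEA response of unsorted Th17p cells differed from that of cells sorted after 1 division in 1057 genes (9.90%), 460 with a more positive (4.31%) and 597 with a more negative (5.59%) response in unsorted cells. With rescaled TPM the split was 678 and 487. Il17a had the most negative difference among genes named by rule, -2.54 (SE 0.62, adjusted p = 0.0043). In Div.1 cells it stood at 14.9 ± 7.68 TPM with DHEA and 33.1 ± 16 TPM with methanol, a log2 difference of -1.11. Lum, a matrix proteoglycan, fell in unsorted cells from 119 ± 17.1 TPM with methanol to 24.1 ± 4.82 TPM with DHEA, with a log2 difference of -0.40 in Div.1 cells (difference of responses -1.87, adjusted p = 2.06e-07). Ccne2, a cyclin of the entry to S phase, had log2 differences of -1.18 and 0.66 (difference of responses -1.84, adjusted p = 0.00213). Apol7e, of an apolipoprotein family, had 1.24 and -0.070 (difference of responses 1.31, adjusted p = 5.76e-05). The histone genes Hist1h2bg and Hist1h2bn, members of a family of near copies whose main transcripts lack the tail captured here, had positive differences of 1.57 and 1.46. Gzmb was at 3.35 in unsorted and 3.35 in Div.1 cells, a difference of 0.008 (SE 0.32, adjusted p = 0.994).

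Against the DHEA response of unsorted Th17n cells the difference was called in 1578 genes (14.8%), 860 more positive (8.06%) and 718 more negative (6.73%) in Th17p cells. Ccl3 was at -4.09 in Th17p and 0.11 in Th17n cells, where it stood at 3.38 ± 1.79 TPM with DHEA and 2.85 ± 0.828 TPM with methanol (difference -4.19, SE 0.69, adjusted p = 6.74e-06). That low level in Th17n cells limits how far Ccl3 could fall there on this scale. S100a6, a calcium-binding protein, went in opposite directions, from 98.3 ± 15.2 TPM with methanol to 37.5 ± 11.2 TPM with DHEA in Th17p cells and from 2.22 ± 0.170 to 16.9 ± 3.34 TPM in Th17n cells (difference -3.87, SE 0.29, adjusted p = 9.61e-17). Il22 in Th17n cells was at 0.247 ± 0.424 TPM with DHEA and 1.30 ± 1.37 TPM with methanol, and the difference of the log2 responses was -3.31 (SE 0.58, adjusted p = 2.13e-05). Gzmb was higher with DHEA in Th17p cells but had a log2 difference of 0.30 in Th17n cells, at 0.250 ± 0.221 and 0 ± 0 TPM (difference 3.05, SE 0.32, adjusted p = 3.55e-11). Xcl1, a chemokine for dendritic cells, rose in both, by 2.28 and 5.69, with 4 of 5 methanol libraries of Th17p cells listed at 0. Il17a had log2 changes of -3.66 and -4.48 in the Th17p and Th17n cells, and that difference was not called (adjusted p = 0.441, limma).

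The EGCG response of unsorted Th17p cells, at another dose and against another solvent, was set beside the DHEA response. EGCG against DMSO was called in 4794 genes (44.9%), 3208 of them higher (30.1%) and 1586 lower (14.9%) with EGCG. The 2 responses differed in 3631 genes (34%), 998 more positive (9.35%) and 2633 more negative (24.7%) for DHEA, and with rescaled TPM 1670 and 1773. The median difference over all genes was -0.1028 and moved to 0 by the rescaling. Ccl3 had log2 differences of -4.09 with DHEA and 0.46 with EGCG (difference -4.55, SE 0.69, adjusted p = 1.74e-07). Cd70, a TNF family ligand, was not called with DHEA (-0.58, adjusted p = 0.11, limma) and rose by 3.16 with EGCG (difference -3.74, adjusted p = 7.19e-11). Gzmb was at 9.70 ± 4.68 TPM with EGCG and 13.4 ± 4.45 TPM with DMSO, so the compounds differed by 3.84 (SE 0.32, adjusted p = 6.47e-16). Treml2, a receptor of the TREM family, rose with DHEA from 5.88 ± 1.31 TPM with methanol to 17.8 ± 1.31 TPM with DHEA and went from 7.67 ± 1.26 to 2.41 ± 0.754 TPM with EGCG (difference 2.83, adjusted p = 7.41e-21). Ltb and Ecm1 were also more positive with DHEA, by 2.34 and 2.38. Il17f fell with both compounds, by 3.28 and 3.17, and their difference was not called (-0.12, SE 0.28, adjusted p = 0.797). The mitophagy gene Bnip3 and the glycolytic gene Gpi1 rose with DHEA and had log2 differences of -0.51 and -0.40 with EGCG (differences 2.06 and 0.83, adjusted p = 1.34e-13 and 2.23e-20, limma).

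**Figure D5:**
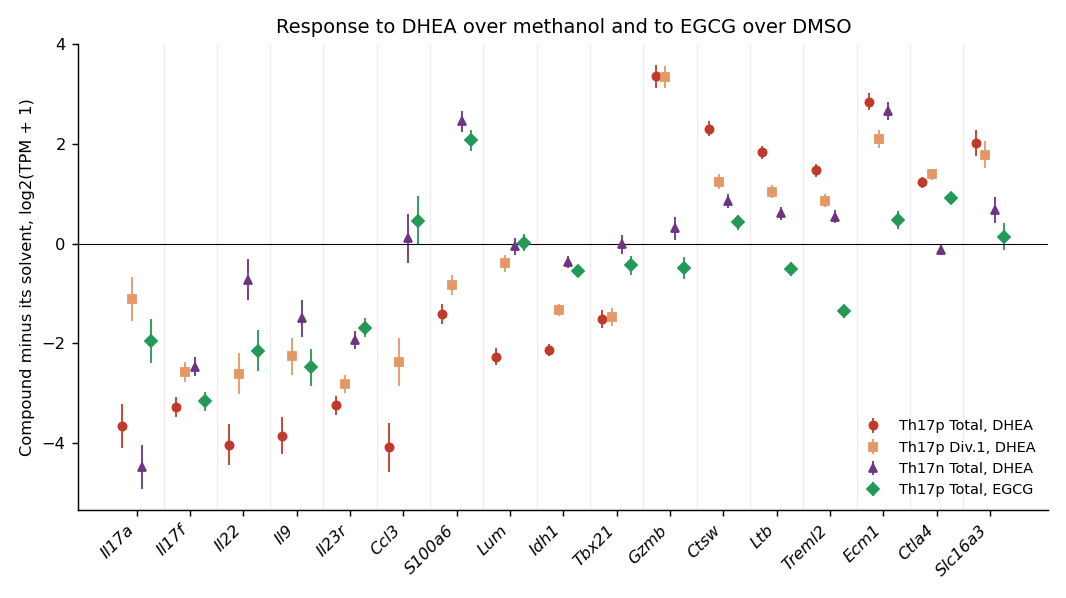
Log2 change with its SE (vertical axis, compound minus solvent, log2(TPM + 1) scale) of 17 genes in 4 responses: DHEA in Th17p Total (circles), Th17p Div.1 (squares) and Th17n Total (triangles) cells, and EGCG in Th17p Total cells (diamonds). Ccl3 and S100a6 are low with DHEA in both kinds of Th17p library, at -4.09 and -1.42 in the unsorted ones, and not in the other responses, and Gzmb is at 3.35 and 3.35 in the DHEA responses of Th17p cells but at 0.30 in Th17n cells and -0.49 with EGCG.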

How the data were processed

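Poly(A) RNA libraries were made from cultured mouse Th17 cells, per the labels' protocols. The authors deposited 1 table of TPM for all 79 libraries, with 1 value per gene symbol. Trimmomatic, kallisto and mm10 are named in the submitters' processing notes, while versions, settings and the way transcripts were summed to symbols are not given in the sources used here. TPM carry no counts, so no count model was used and the precision from depth is unknown.

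Columns were matched to samples by well name and samples to groups by title. The members, gene lists and tests were chosen with earlier results of these data known. Genes that reached 1 TPM in 4 or more libraries (10674 of 20465) were analysed as log2(TPM + 1), a scale that understates changes of low genes. A limma 3.58.1 model (R 4.3.3) with 1 mean for each of 16 groups and an empirical Bayes trend was fitted to 78 libraries; 1 library labelled Th17n DMSO Div.1, whose label breaks the layout of its plate row, was left out. P-values were adjusted after Benjamini and Hochberg over all 10674 genes. Differences between responses were contrasts of the same fit. Summed TPM of marker lists were compared by exact two-sided permutation tests (scipy 1.17.1). The fit was tested on simulated data with known changes.

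Named genes were the 12 largest increases and decreases without overlap and with at least 5 TPM in the higher group, up to 4 members with the smallest p of each described list, 24 genes of the Th17 and pentose phosphate programmes, and the 4 largest differences in each direction between responses, passing over predicted genes; some of them are not reported here. Coordinates are from the GENCODE annotation of GRCm38. Alternatives were pseudocount 0.1, no filter, a filter of 5 TPM, rescaled TPM, a fit on the groups compared only, a replicate block, the left-out library included, no trend, the mean of log2(TPM + 1) for marker lists, and each replicate left out. A run without the wells of columns 1 and 10 was chosen after seeing the data.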

Additional observations from a re-analysis of the deposited data

Results flagged for a closer look

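In 14 of 278 groups of 5 libraries checked for the named genes, 1 library stood apart by Dixon's criterion (a gap to its nearest neighbour above 0.71 of the range), and chance flags about 1 in 20 groups. With DHEA, the high libraries were column 7 for Cd3d (591.6 TPM), column 10 for Cd8b1 (23.16 TPM) and column 6 for Nip7 (112.7 TPM) and Pmvk (72.42 TPM). The low ones were column 9 for Dld (75.69 TPM) and S100a6 (18.14 TPM) and column 7 for Sgk1 (10.29 TPM). With methanol, the high libraries were column 6 for Cd3d (383.6 TPM), column 8 for Il10 (0.08287 TPM) and Xcl1 (2.584 TPM), column 10 for Lag3 (43.04 TPM) and column 7 for Nip7 (157.9 TPM). The low ones were column 6 for Hmmr (56.54 TPM) and column 9 for S100a6 (72.38 TPM). S100a6 was thus lowest in column 9 of both groups.

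The DHEA response of unsorted Th17p cells differed from that of Th17p Div.1 cells in 1057 genes by the limma contrast of the 2 responses. Among named genes the difference in log2 change (unsorted minus Div.1) was -2.54 for Il17a, -2.03 for Tfpt, -1.87 for Lum, -1.84 for Ccne2, -1.59 for Il9, -0.74 for Il1r1, -0.69 for Cdkn1a, -0.25 for Pgd and -0.24 for Pgam1. It was 1.57 for Hist1h2bg, 1.49 for Zfp869, 1.46 for Hist1h2bn and 1.31 for Apol7e.

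Between Th17p and Th17n cells, both unsorted, the DHEA responses differed in 1578 genes by the same kind of contrast. The difference in log2 change (Th17p minus Th17n) was -4.19 for Ccl3, -3.87 for S100a6, -3.41 for Xcl1, -3.31 for Il22, -2.35 for Il9, -1.497 for Tbx21, -1.40 for Il2, -1.31 for Il23r, -1.16 for Cdkn1a and -0.82 for Il17f. It was 3.20 for Cd83, 3.05 for Gzmb, 2.83 for Lamp1, 2.72 for Cyp1b1, 1.00 for Il10, 0.73 for Il21 and 0.20 for Pgam1. Il10 was near the floor in all Th17p libraries of both treatments, so its positive difference is no rise in Th17p cells. Il22 and Ccl3 were low in Th17n cells with either treatment, which limits how far either could fall there on this scale.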

How the results depend on the processing

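The count of genes called for DHEA against methanol stayed between 4553 and 5470 under all alternatives and between 4795 and 4950 when 1 replicate was left out. Of 139 named genes, 129 kept their direction and their side of the threshold in every alternative. The other 10 were Cd4, Cd70, Foxp3, Il10, Il2, Lamp1, Maf, Rora, Taldo1 and Tkt, of which 3 that were not called changed sign once: Il10 to -0.002 without the wells of columns 1 and 10, Il2 to -0.006 without the DHEA replicate of column 10 (range -0.006 to 0.196 over replicates left out), and Rora to 0.015 without that of column 8 (range -0.414 to 0.015). Of 88 counts of list members, 61 stayed within 1.5 times of the reported one.

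Well columns shared by the groups give a replicate number, but no label says that they mark a mouse or a batch. Libraries of the same column in the DHEA and methanol groups deviated together with r of 0.039 to 0.165 across genes, and 4 of 5 DHEA libraries correlated best with their own column. Against the Div.1 libraries of the same treatment, every unsorted Th17p library correlated best with its own column. There r was 0.039 to 0.084 with DHEA and 0.024 to 0.208 with methanol. Shared columns are thus a hint from the data and not from the design. With the replicate block, 5470 genes were called in the main comparison, and the difference from Div.1 rose from 1057 to 1587 genes (645 more positive, 942 more negative), the one count of differing responses that moved by over 1.5 times. The block also brought Tkt and Taldo1 past the threshold (limma, adjusted p = 0.00996 and 0.0193) and raised NRF2 targets that fell from 5 to 8.

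For marker lists, the mean of log2(TPM + 1) gave differences of 0.0972 (CD8 T and NK cells) and 0.300 (dendritic cells) that missed the threshold. Rescaled TPM brought B cell (0.786 TPM), erythroid and platelet (0.786 TPM) and neutrophil, mast cell and basophil markers (-3.59 TPM) past it. On the deposited scale single markers of these lists went both ways. With DHEA and methanol, Cd79b had means of 1.27 and 0.230 TPM but Ebf1 0.185 and 0.729 TPM. Hba-a1 had 0.656 and 0 TPM, and Alas2 0.562 and 0.614 TPM. Ly6g had 1.34 and 5.26 TPM, and Kit 0.335 and 0.0695 TPM. Leaving out 1 replicate gave differences of 8.47 to 10.4 TPM for CD8 T and NK, 14.5 to 16.7 TPM for dendritic cell markers, 0.548 to 0.895 TPM for B cell, 0.532 to 0.894 TPM for erythroid and platelet, and -4.43 to -2.70 TPM for neutrophil, mast cell and basophil markers, and each of the last 3 passed the threshold in 1 of these runs. The cause of these shifts was not tested. Depth is unknown, so low genes such as Il10, Foxp3 and Maf carry an error that cannot be given.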

Other observations

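Gene groups not described above also differed between DHEA and methanol in these unsorted pathogenic Th17 cells. Of 13 genes of TGFb receptors, Smads and targets, 7 rose and none fell (median log2 change 0.26), and 4 rose when the left-out library was included, while 1 fell without the DHEA library of column 10 or the methanol library of column 6. Tgfbr2, the receptor chain that binds TGFb, went from 12.7 ± 1.28 TPM with methanol to 20.2 ± 0.797 TPM with DHEA (log2 change 0.63, SE 0.11, adjusted p = 1.91e-06), Tgfbr3, a co-receptor, from 1.97 ± 0.505 TPM with methanol to 4.45 ± 0.433 TPM with DHEA, and Smad3, a carrier of the signal, from 10.3 ± 1.53 TPM with methanol to 18.2 ± 1.29 TPM with DHEA. Of 30 lysosome and autophagy genes, 17 rose and 3 fell (median 0.32), among them Npc2, which moves cholesterol out of lysosomes, from 119.6 ± 10.1 TPM with methanol to 222 ± 13.7 TPM with DHEA. Of 23 apoptosis regulators, 10 rose and 2 fell, and 1 fell without any one of the DHEA libraries of columns 7 to 10 or the methanol libraries of columns 7, 8 and 10. Bcl2, a survival gene, was at 43.5, 50.9, 49.5, 54.3 and 54.3 TPM with DHEA and 18.5, 19.5, 22.9, 22.2 and 22.2 TPM with methanol (log2 change 1.22, SE 0.12, adjusted p = 6.46e-14), without overlap, while its relative Bcl2a1d, one of a family of near copies, went from 235 ± 9.01 TPM with methanol to 139 ± 24.3 TPM with DHEA.

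Lower with DHEA were chaperones and enzymes of nucleotide synthesis. Of 18 heat shock chaperone genes, 13 fell and 1 rose (median -0.22), or 2 rose without the DHEA library of column 8, with Hspd1, the mitochondrial chaperonin, from 1604 ± 45 TPM with methanol to 1036 ± 66.3 TPM with DHEA (log2 change -0.63, SE 0.043, adjusted p = 3.61e-20). Of 24 unfolded protein response genes, 13 fell and 4 rose (median -0.25), with Herpud1, a protein of ER-associated degradation, from 117 ± 29.3 TPM with methanol to 64.3 ± 3.38 TPM with DHEA (log2 change -0.82, SE 0.10, adjusted p = 6.0e-10). Of 21 genes of purine and pyrimidine synthesis, 17 fell and 1 rose (median -0.26). Of 9 Th1 genes, 4 rose and 4 fell, and 2 rose without the DHEA library of column 6 or 8 or the methanol library of column 6, or without the wells of columns 1 and 10, or when the left-out library was included. Il18rap and Il18r1, the chains of the IL-18 receptor, were 2 of those that fell, from 8.65 ± 1.59 TPM with methanol to 1.77 ± 0.489 TPM with DHEA (log2 change -1.80, SE 0.15, adjusted p = 2.0e-16) and from 8.0 ± 1.21 TPM with methanol to 2.78 ± 0.711 TPM with DHEA (log2 change -1.26, SE 0.16, adjusted p = 6.30e-10), without overlap in either. Pdcd1, the inhibitory receptor PD-1, went from 115 ± 9.47 TPM with methanol to 67.4 ± 9.0 TPM with DHEA (log2 change -0.77, SE 0.091, adjusted p = 8.15e-11), while Cd160, another inhibitory receptor, went from 0.273 ± 0.0864 TPM with methanol to 2.94 ± 0.936 TPM with DHEA (log2 change 1.60, SE 0.15, adjusted p = 6.97e-14).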
